A study of Arabidopsis thaliana with 18 samples.

Results

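Introns that were almost fully spliced while the transcript was still bound to chromatin were examined in Arabidopsis thaliana seedlings. The introns were chosen by their measured reads in Col-0. An intron was placed in this set when at least 50 exonic reads lay at each of its splice sites in chromatin-bound RNA-seq (CB-RNA-seq) of the wild type Col-0, and when its intronic reads, summed over both splice sites, were at most 0.05 of its summed exonic reads. That quotient, called the summed SS ratio here, falls as splicing proceeds. The Col-0 table listed 121244 nuclear introns, of which 56463 met the read minimum, and 2631 of these (4.66%) were almost fully spliced. They lay in 1606 of the 10815 genes that had an intron of the read minimum. The remaining 53832 introns are called the other introns.

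All plants were seedlings 14 days old. CB-RNA-seq was made from the mutant xrn3, which carries the xrn3-3 insertion allele in the gene of the nuclear exoribonuclease XRN3, and from Col-0, with 2 libraries each. Total RNA-seq was made from Col-0 seedlings given herboxidiene (GEX1A), a compound that stops spliceosome assembly after U2 snRNP has bound, and from Col-0 seedlings given the solvent DMSO, with 3 libraries each. Both treatments lasted 1 h. Plant native elongating transcript sequencing (pNET-seq), which maps the RNA 3′ ends held by RNA polymerase II (Pol II) phosphorylated on Ser2 of its C-terminal domain, had 2 libraries in each of these 4 conditions. Each deposited table held 1 pooled value per condition, so no value below has a replicate error, and tests on pooled reads compare those libraries and not the conditions.

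The splice site tables held 29404905 exonic and 5608097 intronic reads for the libraries labelled xrn3, 27795104 and 7212782 for Col-0, 15070870 and 3567587 for herboxidiene, and 20857373 and 1987838 for DMSO. XRN3 itself (AT1G75660) had 9931 gene body reads in pNET-seq of the libraries labelled xrn3, against 302 in Col-0, and its splice sites had 6925 exonic reads in CB-RNA-seq of the libraries labelled xrn3, against 8055 in Col-0. These reads do not show a loss of the transcript, so the mutant is named by its label throughout. XRN3 had 1 almost fully spliced intron among its 21 introns of the read minimum. That intron, number 4 of 22, had 82 intronic and 432 exonic reads in the libraries labelled xrn3, against 9 and 360 in Col-0.

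Splicing removes an intron in a pair of cuts and joins. The 5′ splice site is recognised by U1 snRNP, the branch point near the 3′ end by U2 snRNP, and the excised intron is released while the exons are joined. Much of this takes place before the polymerase has left the gene, and introns near the start of a gene have the longest time on chromatin before the transcript is cleaved at the polyadenylation site (PAS). Most Arabidopsis introns are short and rich in T.

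The following 5 introns had no intronic read at all in Col-0 and were among the most deeply read of that kind. They are shown to make visible what an almost fully spliced intron looks like, with the first 6 and the last 3 bases in capitals (RefSeq, assembly TAIR10.1, strand of the gene):
HSP60 intron 5: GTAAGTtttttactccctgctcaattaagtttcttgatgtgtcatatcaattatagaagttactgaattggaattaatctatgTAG
AT4G30990 intron 16: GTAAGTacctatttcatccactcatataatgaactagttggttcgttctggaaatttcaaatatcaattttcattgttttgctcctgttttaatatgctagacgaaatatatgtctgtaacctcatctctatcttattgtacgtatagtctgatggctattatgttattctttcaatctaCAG
DDB1B intron 3: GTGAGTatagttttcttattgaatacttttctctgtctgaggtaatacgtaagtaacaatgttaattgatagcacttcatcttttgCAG
PAE1 intron 5: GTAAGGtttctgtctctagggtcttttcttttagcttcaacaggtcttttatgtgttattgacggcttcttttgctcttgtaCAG
OPR3 intron 2: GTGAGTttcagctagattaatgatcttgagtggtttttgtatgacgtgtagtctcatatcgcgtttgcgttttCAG

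These introns lie between coding exons at chr3:8670254-8670339 (plus strand, 86 bp), chr4:15089987-15090169 (plus, 183 bp), chr4:11264384-11264472 (minus, 89 bp), chr1:20104925-20105009 (minus, 85 bp) and chr2:2361819-2361894 (minus, 76 bp), in the order printed. All of them begin with GT and end with AG, and their first 6 bases take 3 different forms. The 3 shortest almost fully spliced introns show the low end of the length range:
AT4G02120 intron 6: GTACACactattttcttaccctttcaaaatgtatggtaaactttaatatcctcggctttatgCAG
LIP1 intron 1: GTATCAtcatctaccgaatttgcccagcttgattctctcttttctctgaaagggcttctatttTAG
AT3G54750 intron 3: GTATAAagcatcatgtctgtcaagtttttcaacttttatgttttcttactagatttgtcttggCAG

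They span 65 bp at chr4:941864-941928, 66 bp at chr2:8980052-8980117 and 66 bp at chr3:20268130-20268195, all between coding exons. None of the 3 starts with GTAAG, which pairs with U1 snRNA. AT4G02120 intron 6, in a CTP synthase gene, had 30 intronic and 193 exonic reads in CB-RNA-seq of the libraries labelled xrn3, against 9 and 230 in Col-0. LIP1 (AT2G20860) intron 1, in a lipoic acid synthase gene, had 11 and 299 reads in the libraries labelled xrn3, against 1 and 158 in Col-0. AT3G54750 intron 3 had 4 and 166 reads in the libraries labelled xrn3, against 3 and 111 in Col-0. The ratio of the AT4G02120 intron, 0.155 in the libraries labelled xrn3, was thus above the threshold in that genotype.

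Over the whole set, 2614 of the 2631 introns began with GT and ended with AG. The share that began with GTAAG was 16.4% of the almost fully spliced introns, against 16.9% of the other introns. The share that ended with TGCAG was 21.2%, against 21.6% of the other introns. Read the other way round, 4.54% of the introns of the read minimum that began with GTAAG were almost fully spliced, close to the 4.66% of all introns. These splice site letters were within 1 percentage point of each other in the 2 groups. The exon ended in AG before 59.2% of the almost fully spliced introns and before 54.9% of the other introns. The motif CTNAN, which resembles a branch point, occurred in the last 60 bases on the intron strand in 79.02% of the almost fully spliced introns. It occurred in 74.0% of the other introns, in 75.3% of the other introns of the same genes and in 73.0% of all listed introns. The stricter motif CTAAC hardly differed there, with 5.89% of the almost fully spliced introns and 5.52% of the other introns. The median share of T was 42.4%, against 40.9% in the other introns. Introns that began with the U12-type sequence GTATCCTT or ATATCCTT, which are excised by the minor spliceosome, numbered 2 among the almost fully spliced introns and 133 among the other introns. Thus 1.48% of these 135 introns were almost fully spliced, beside 4.66% of all introns, a share that rests on 2 introns. In 18 almost fully spliced introns (0.684%) the 50 bases at an intron end occurred elsewhere in the genome, against 0.438% of the other introns. The tables hold uniquely mapped reads, and the part of such repeats in a low intronic count was not tested.

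The chosen introns had a median summed SS ratio of 0.0345 in Col-0 CB-RNA-seq, against 0.240 in the other introns, which is what the choice used. In the 5 nearest the threshold on its low side the ratio was 0.05, and in the 5 nearest on its high side it was 0.0501. The libraries labelled xrn3 were not used for the choice. There, 1620 of the 2525 almost fully spliced introns with 50 exonic reads at each site (64.2%) were again at or below 0.05, against 5.95% of the other introns and 8.62% of all 59251 introns of that minimum in the libraries labelled xrn3. The median ratio of the almost fully spliced introns in the libraries labelled xrn3 was 0.0381, and that of the other introns was 0.175. Ratios were lower in the libraries labelled xrn3 in general, with a median of 0.168 over all introns chosen by the Col-0 read minimum, against 0.2296 in Col-0. A ratio above 0.1 was found for 245 of the 2525 introns (9.70%). The introns just below the threshold in Col-0, with ratios over 0.04 to 0.05, had a median of 0.0456 in the libraries labelled xrn3, and those with ratios over 0.05 to 0.06 had a median of 0.0526, so the threshold cuts through a continuous range.

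**Figure D1:**
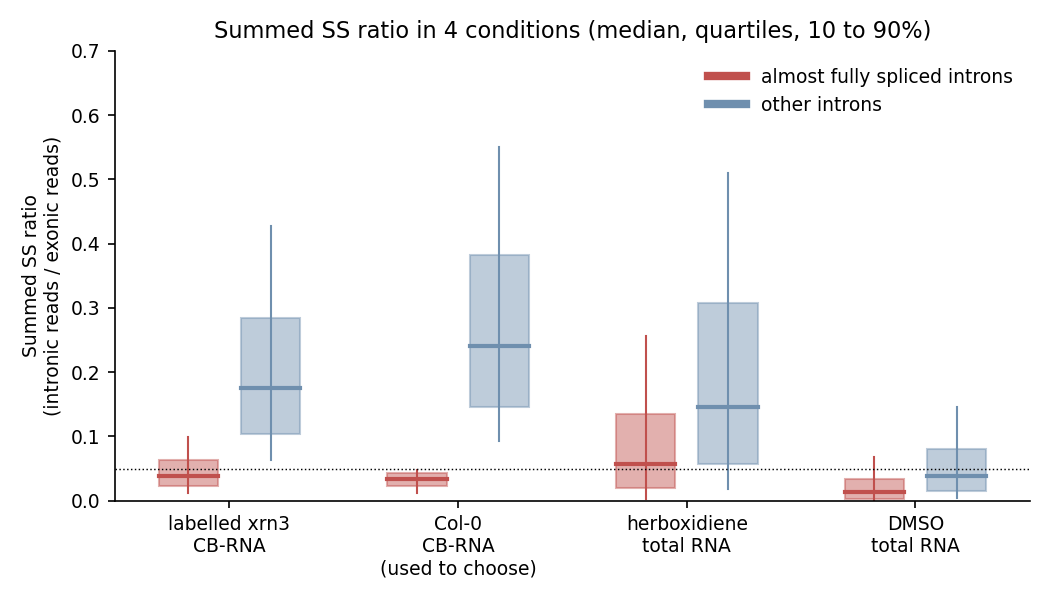
Summed SS ratio (vertical axis, intronic over exonic reads, no unit) in CB-RNA-seq of the libraries labelled xrn3 and of Col-0 and in total RNA-seq after herboxidiene and DMSO, for almost fully spliced introns (red) and other introns (blue). Lines mark medians, boxes quartiles, whiskers the 10th to 90th percentile over introns, and the dotted line the threshold of 0.05. The medians are 0.0381 and 0.175 in the libraries labelled xrn3, and 0.0568 and 0.145 after herboxidiene.

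How often the ratio stayed low went with the reads behind it. Among almost fully spliced introns with 100 to under 200 summed exonic reads in Col-0, 41.6% were at or below 0.05 in the libraries labelled xrn3. Among those with 1600 or more, the share was 95.7%. The almost fully spliced introns also made up 14.8% of all introns with 1600 or more exonic reads, against 3.96% of those with 100 to under 200. An intron with 100 exonic reads enters the set with at most 5 intronic reads, so membership at the low end rests on few counts.

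No intronic read was seen in Col-0 for 90 introns, whose exonic reads ran from 103 to 465 with a median of 139.5. In the libraries labelled xrn3, 81 of them met the read minimum. Of these, 52 were at or below 0.05, 29 were above, and 9 again had no intronic read. The deepest was intron 5 of HSP60 (AT3G23990), a mitochondrial chaperonin, with 7 intronic and 600 exonic reads in the libraries labelled xrn3, against 0 and 465 in Col-0. A count of 0 over 465 exonic reads allows a ratio of up to 0.00645. Intron 16 of AT4G30990, an ARM repeat protein, had 3 and 255 reads in the libraries labelled xrn3, against 0 and 400 in Col-0. Intron 2 of OPR3 (AT2G06050), an enzyme of jasmonate synthesis, had 2 and 415 reads, against 0 and 330 in Col-0. Intron 2 of AT3G02300, an RCC1 family protein, had 3 and 247 reads, against 0 and 328 in Col-0. These 4 introns were low in both genotypes.

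The next 5 introns had between 14 and 33 intronic reads in the libraries labelled xrn3. Like the introns above, they were chosen for a count of 0 in Col-0. The libraries labelled xrn3 could thus only show an equal or higher count. Intron 5 of CCT (AT4G00450), a Mediator subunit, had 33 intronic and 304 exonic reads in the libraries labelled xrn3, a ratio of 0.109 (95% exact binomial interval 0.0734 to 0.156), against 0 and 302 reads in Col-0. Intron 5 of PAE1 (AT1G53850), a 20S proteasome subunit, had 18 and 483 reads, against 0 and 367 in Col-0. Intron 3 of DDB1B (AT4G21100), an adaptor of CUL4 ubiquitin ligases, had 14 and 337 reads, against 0 and 368 in Col-0. Intron 8 of AT5G46070, a guanylate-binding protein, had 14 and 320 reads, against 0 and 293 in Col-0. Intron 4 of the midasin gene AT1G67120, a factor of ribosome assembly, had 14 and 303 reads, against 0 and 320 in Col-0. Intron 3 of the resistance gene AT1G58848 had 0 intronic and 164 exonic reads in the libraries labelled xrn3, against 0 and 377 in Col-0, and these counts are uncertain, since the 50 bases at its 5′ and 3′ end occur 2 and 4 times in the genome.

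The almost fully spliced introns were not long. Their median length was 97 bp (quartiles 86 and 137 bp), against 100 bp (86 and 171 bp) in the other introns. Their share among introns of the read minimum was 4.13% at 60 to 79 bp, 5.38% at 80 to 99 bp, 3.55% at 250 to under 500 bp and 2.49% at 500 bp or more. Long introns were not absent. The longest, intron 2 of the glucosidase gene AT4G10060, spanned 1658 bp and had 28 intronic and 657 exonic reads in the libraries labelled xrn3, against 12 and 610 in Col-0. Intron 1 of AT5G16240, a stearoyl-acyl-carrier-protein desaturase, spanned 1128 bp and had 21 and 512 reads, against 18 and 564 in Col-0. Intron 1 of AT4G23820, a pectin lyase-like protein, spanned 1102 bp and had 81 and 1610 reads, against 69 and 1468 in Col-0.

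The share of almost fully spliced introns changed along the gene. Of the first introns of the read minimum 7.33% were almost fully spliced, of the internal introns 4.77%, of the last introns 1.295%, and of the sole introns of genes with a single intron 2.30%. In genes with 10 or more introns, the share was 12.8% at intron 1, 10.7% at intron 2, 8.17% at intron 3, 4.85% at intron 5 and 3.66% at intron 10. Counted from the other end, it was 5.72% at the tenth intron from the end, 3.90% at the fifth and 1.35% at the last. The share of introns at or below 0.05 in the libraries labelled xrn3 followed the same order, with 17.0% at intron 1 and 2.93% at the last intron. Median exonic reads in Col-0 were 277 at intron 1 and 239.5 at the last intron.

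**Figure D2:**
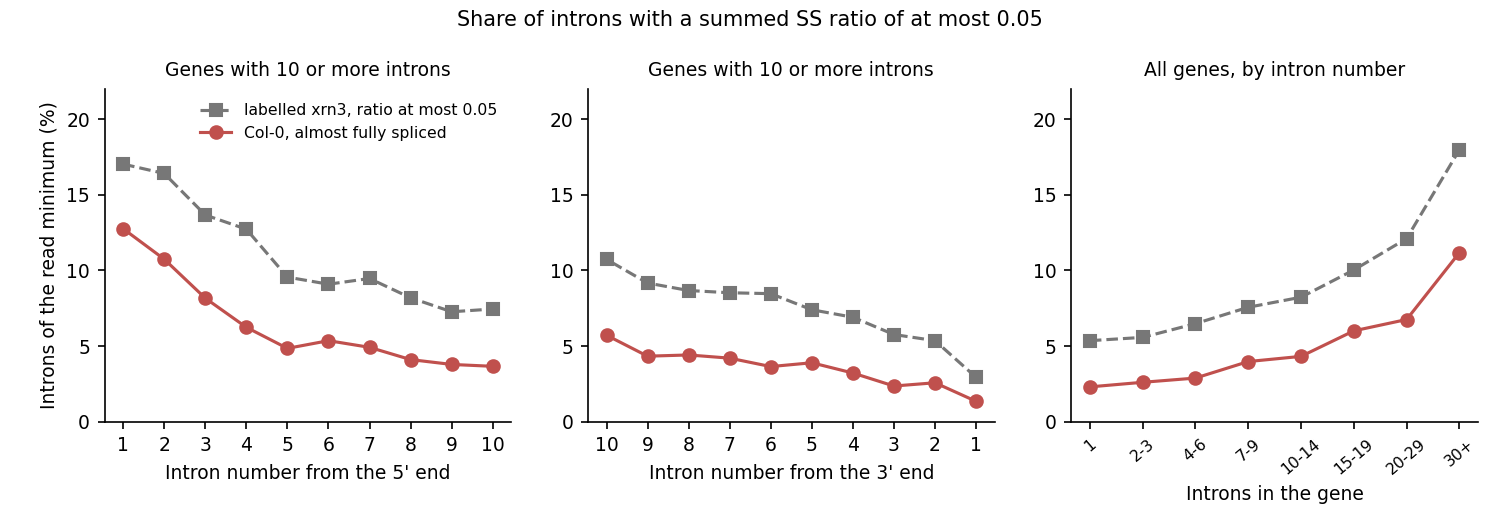
Percentage of introns of the read minimum (vertical axes) with a summed SS ratio of at most 0.05 in the libraries labelled xrn3 (grey squares, dashed) and in Col-0 (red circles), by intron number from the 5′ end and from the 3′ end in genes with 10 or more introns, and by the number of introns in the gene. The Col-0 share is 12.8% at the first and 1.35% at the last intron of such genes, and 11.2% in genes with 30 or more introns.

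Distance to the gene end gave the same picture. The almost fully spliced introns ended a median of 2556.5 bp before the gene end given in the pNET-seq table, used here as the PAS (2540 introns in genes of that table), against 1574 bp for 52403 other introns. Of introns that ended less than 500 bp before it, 1.45% were almost fully spliced, and of those 5000 bp or more before it, 11.9% were. Genes with many introns held more of them. The share was 2.30% of introns in genes with a single intron, 4.32% in genes with 10 to 14 introns and 11.2% in genes with 30 or more. In the libraries labelled xrn3 the shares at or below 0.05 in these genes were 5.36%, 8.23% and 17.98%. A gene with 30 or more introns offers more chances, and 75 of 93 such genes had at least 1 almost fully spliced intron, against 22 of 956 genes with a single intron. Distance, intron number and position are tied to each other through gene length, and their parts cannot be told apart here.

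Almost fully spliced introns tended to lie side by side. The intron after one of them was itself almost fully spliced in 449 of 2292 cases (19.6%), against 1402 of 40295 (3.48%) for the intron after another intron. Both shares rest on the Col-0 reads used for the choice. In the libraries labelled xrn3 the median ratio of the intron after was 0.0802 and 0.171, in the same order. Neighbours share the exon between them and its reads, and they share the gene. The other introns of the 1606 genes were also well spliced. Their median ratio in the libraries labelled xrn3 was 0.128, against 0.196 for introns of genes without an almost fully spliced intron.

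Most of the 1606 genes, 1077, had a single almost fully spliced intron, 314 had 2, 105 had 3, 54 had 4 and 56 had 5 or more. GLU1 (AT5G04140), the ferredoxin-dependent glutamate synthase of photorespiration, had the most, 18 of 31. Their ratios in the libraries labelled xrn3 ran from 0.00879 to 0.0386, against 0.0107 to 0.0482 in Col-0. SHM1 (AT4G37930), a mitochondrial serine hydroxymethyltransferase of photorespiration, had 10 of 14, with ratios of 0.00639 to 0.0343 in the libraries labelled xrn3 and 0.0138 to 0.0491 in Col-0. PREP1 (AT3G19170), which degrades presequences in mitochondria and chloroplasts, had 13 of 18, with 0.00941 to 0.0538 in the libraries labelled xrn3 and 0.0146 to 0.0461 in Col-0. In GLU1 and SHM1, as in ILA below, every chosen intron was also at or below 0.05 in the libraries labelled xrn3.

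Large genes filled the rest of the list. ILA (AT1G64790), a HEAT repeat protein of translational control, had 17 almost fully spliced introns among 56 of the read minimum, all between 0.00408 and 0.0471 in the libraries labelled xrn3. GSL12 (AT5G13000), a callose synthase, had 15 of 42, between 0.0149 and 0.0940 in the libraries labelled xrn3. The callose synthase CALS1 (AT1G05570) had 9 of 42, between 0.0206 and 0.0590. SUS2 (AT1G80070), the PRP8 protein at the core of the spliceosome, had 9 of 23, between 0.0178 and 0.0531. AT5G61140, annotated as a U5 snRNP helicase, had 10 of 48, between 0.00739 and 0.0952. AT2G17930, a kinase-like protein with a FAT domain, had 9 of 34, between 0.0131 and 0.160. The midasin gene AT1G67120 had 10 of 39, between 0.0118 and 0.190, the widest range of the 10 genes.

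**Figure D3:**
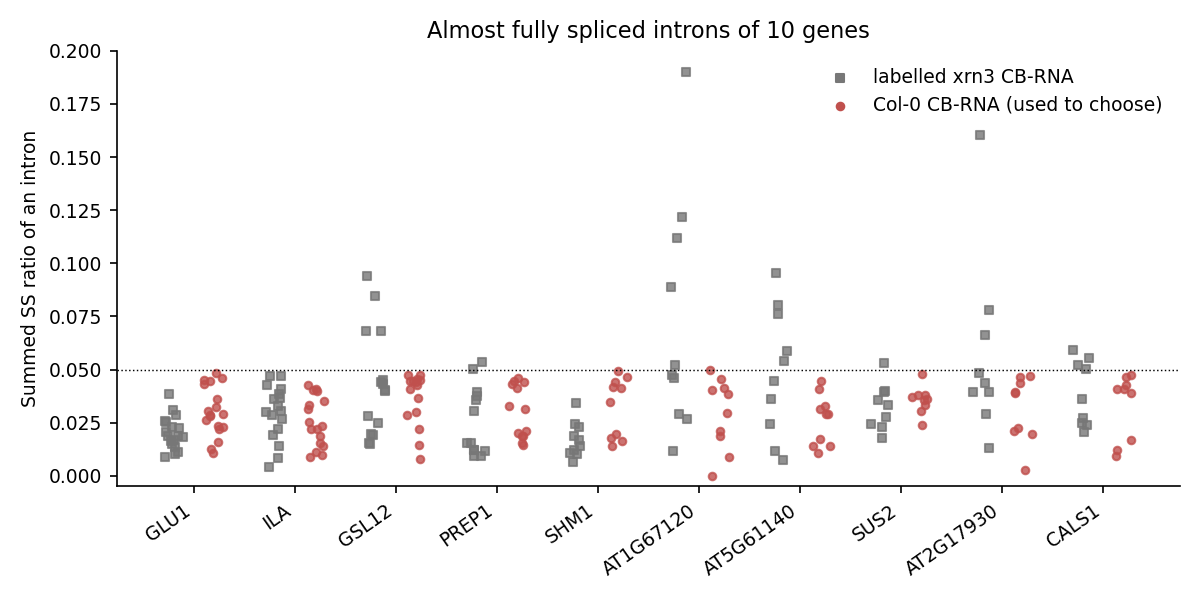
Summed SS ratio (vertical axis) of each almost fully spliced intron of the 10 genes that held most of them, in CB-RNA-seq of the libraries labelled xrn3 (grey squares) and of Col-0 (red circles, the values used for the choice). The dotted line is the threshold of 0.05. In the libraries labelled xrn3, GLU1, ILA and SHM1 stay below it, while introns of AT1G67120 reach 0.190.

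In 7 genes with 3 or more introns of the read minimum, every such intron was almost fully spliced. GUN5 (AT5G13630), a subunit of magnesium chelatase in chlorophyll synthesis, had 4 of 4, with ratios of 0.00507 to 0.0283 in the libraries labelled xrn3 and 0.00959 to 0.0464 in Col-0. PSBR (AT1G79040) of photosystem II had 3 of 3, with 0.0190 to 0.0217 in the libraries labelled xrn3 and 0.0290 to 0.0379 in Col-0. NPQ4 (AT1G44575), the PsbS protein of photoprotection, had 3 of 3, with 0.0148 to 0.0305 in the libraries labelled xrn3 and 0.0333 to 0.0360 in Col-0. TCTP (AT3G16640), a growth regulator, had 3 of 3, with 0.00964 to 0.0119 in the libraries labelled xrn3 and 0.0104 to 0.0217 in Col-0. The ribosomal protein gene AT5G20290 had 4 of 4, with 0.0213 to 0.0224 in the libraries labelled xrn3 and 0.0263 to 0.0428 in Col-0. The TRAF-like gene AT1G65370 had 3 of 3, with 0.0104 to 0.235 in the libraries labelled xrn3 and 0.0261 to 0.0333 in Col-0. LHY (AT1G01060), a transcription factor of the circadian clock, had 5 of 5, with 0.00490 to 0.0642 in the libraries labelled xrn3 and 0 to 0.0328 in Col-0, over 113 to 169 exonic reads each in Col-0.

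By product names in the RefSeq annotation, the share of almost fully spliced introns was 17.1% (20 of 117) in light harvesting and photosystem genes and 10.6% (61 of 576) in cytosolic ribosomal protein genes, beside 4.66% of all introns of the read minimum. Chaperones had 61 of 701 (8.70%), led by HSP60 with 6. Splicing factors had 26 of 315 (8.25%), in 9 of 55 genes. Most of these lay in AT5G61140, with 10 of 48, and SUS2, with 9 of 23. V-type and F-type ATPase subunits had 17 of 224 (7.59%), led by the vacuolar subunit gene VHA-A with 3, and genes annotated to RNA polymerase II and its Mediator had 10 of 137 (7.30%), led by GCT with 2. Proteasome subunits had 20 of 291 (6.87%), led by AT4G24820 with 3, and translation initiation and elongation factors had 23 of 335 (6.87%), led by AT1G57720 with 2. Aminoacyl-tRNA synthetases had 25 of 390 (6.41%), led by the alanyl-tRNA synthetase gene ALATS with 7. Genes annotated as protein kinases or kinase family proteins were below the share of all introns, with 83 of 2583 (3.21%). They were led by AT2G17930 with 9, a phosphatidylinositol 3- and 4-kinase family protein by its annotation. In the libraries labelled xrn3, 28.2% of the photosystem introns and 6.20% of the kinase introns were at or below 0.05, beside 8.70% of all introns of the read minimum. For the genes annotated to RNA polymerase II and its Mediator the share there was 8.66%, near that of all introns. In the remaining lists it ran from 11.6% (proteasome subunits) to 19.3% (cytosolic ribosomal proteins). Median exonic reads in Col-0 were 1259 per photosystem intron and 262 per intron of the read minimum, and the part of abundance was not tested.

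Herboxidiene was used in the study to ask what a block of splicing does. The response of the almost fully spliced introns was measured in total RNA, where 1863 of them had 50 summed exonic reads in both conditions. Total RNA also holds transcripts made before the short treatment. Their part in a low ratio after herboxidiene was not tested. Their median ratio was 0.0568 after herboxidiene, against 0.0134 after DMSO. In the other introns it was 0.145 after herboxidiene and 0.0388 after DMSO. The ratio was higher after herboxidiene in 1020 of the 1863 (54.8%) and lower in 68 (3.65%), by Fisher's exact test on the pooled reads with Benjamini-Hochberg adjustment over 47947 introns. Of all introns tested 60.8% were called higher and 3.21% lower, so the almost fully spliced introns stood near the background. The median log2 fold change of the ratio, with 0.5 reads added to each count, was 1.88 in the almost fully spliced introns, 1.81 in the other introns and 1.84 in all introns tested.

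At like DMSO ratios, the almost fully spliced introns had lower ratios after herboxidiene. The DMSO ratios rested on a median of 5 intronic reads in the almost fully spliced introns and 10 in the other introns. The part of counting error in placing introns in these ranges was not tested. With DMSO ratios over 0.02 to 0.05 the median after herboxidiene was 0.0705 in 441 almost fully spliced introns and 0.135 in 10676 other introns. With DMSO ratios over 0.05 to 0.1 it was 0.113 in 216 and 0.186 in 8731. The order was the same in each of the 6 ranges of the DMSO ratio. At the threshold of the choice, 51.5% of the almost fully spliced introns with 50 exonic reads at each site after herboxidiene were at or below 0.05 in that condition, against 24.8% of the other introns. The corresponding shares after DMSO were 84.9% of the almost fully spliced introns and 60.5% of the other introns, so the groups already differed without herboxidiene. Intron number moved with these values. In genes with 1 to 3 introns the median of the almost fully spliced introns was 0.0399 after herboxidiene and 0.00670 after DMSO, and that of the other introns was 0.260 after herboxidiene and 0.0382 after DMSO. In genes with 20 or more introns it was 0.0505 after herboxidiene and 0.0179 after DMSO for the almost fully spliced introns, and 0.0780 after herboxidiene and 0.0392 after DMSO for the other introns. The median log2 fold change was 2.42 for almost fully spliced and 2.56 for other introns in genes with 1 to 3 introns, and 1.33 and 0.88 in genes with 20 or more. In genes with 1 to 3 introns 69.8% of the almost fully spliced introns and 82.7% of the other introns were called higher. These shares were 63.2% and 69.1% with 4 to 9 introns, and 53.2% and 53.5% with 10 to 19. Only with 20 or more introns was the order reversed, with 42.1% and 37.5%.

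**Figure D4:**
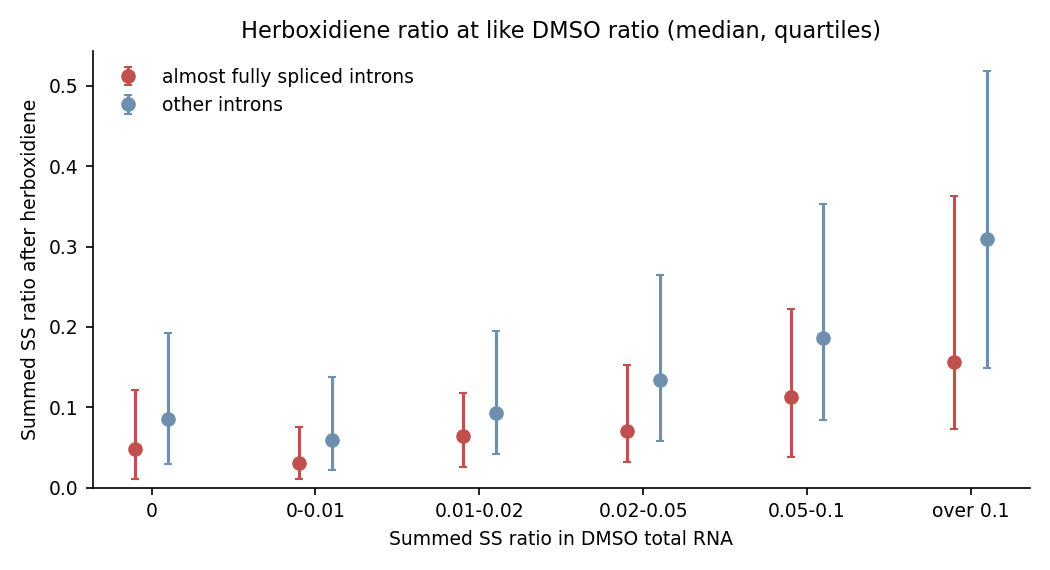
Summed SS ratio after herboxidiene (vertical axis) for almost fully spliced introns (red) and other introns (blue) in 6 ranges of the summed SS ratio after DMSO (horizontal axis). Points are medians and bars quartiles over introns. In the range over 0.02 to 0.05 the medians are 0.0705 and 0.135. The DMSO ratios rest on a median of 5 and 10 intronic reads, and the part of counting error was not tested.

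Single introns ranged from almost no change to near complete retention. Intron 4 of PUB45 (AT1G27910), a U-box ubiquitin ligase, had 223 intronic and 229 exonic reads after herboxidiene, a ratio of 0.974 (95% exact binomial interval 0.806 to 1.18), against 41 and 498 reads after DMSO (adjusted p = 1.69e-50, Fisher's exact test). Intron 3 of AT5G61560, a U-box protein kinase, had 78 and 118 reads after herboxidiene, against 7 and 370 after DMSO (adjusted p = 3.47e-32, Fisher's exact test). Intron 2 of SFH3 (AT2G21540), a SEC14-like lipid transfer protein, had 73 and 112 reads after herboxidiene, against 0 and 155 after DMSO (adjusted p = 2.14e-22, Fisher's exact test). Intron 3 of AT1G05380, a PHD finger protein, had 88 and 111 reads after herboxidiene, against 7 and 124 after DMSO. Intron 1 of AT1G49520, a SWIB domain protein, had 136 and 188 reads after herboxidiene, against 34 and 172 after DMSO. In CB-RNA-seq that intron had 40 and 129 reads in the libraries labelled xrn3, a ratio of 0.310, against 8 and 166 in Col-0. The ratios of the others in this group were 0.0423 to 0.0742 in the libraries labelled xrn3. These 5 had the highest ratios after herboxidiene among almost fully spliced introns with 100 exonic reads in both conditions.

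Among the introns shown above, intron 2 of OPR3 had 1420 intronic and 4038 exonic reads after herboxidiene, a ratio of 0.352, against 184 and 9111 reads and a ratio of 0.0202 after DMSO. It was thus without an intronic read in CB-RNA-seq of Col-0 and among those called higher after herboxidiene. PAE1 intron 5 had 49 and 446 reads after herboxidiene, against 2 and 551 after DMSO (adjusted p = 1.06e-13, Fisher's exact test). HSP60 intron 5 had 8 and 261 reads after herboxidiene, against 0 and 333 after DMSO (adjusted p = 0.00298, Fisher's exact test). Intron 8 of AT5G46070 had 26 and 176 reads after herboxidiene, against 0 and 223 after DMSO. All 4 were called higher.

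No intronic read was seen after herboxidiene in 90 of the 1349 almost fully spliced introns with 50 exonic reads at each site in that condition. This was 6.67%, against 2.75% of the other introns. Among introns with that minimum after DMSO, the shares were 16.2% and 6.88%. The 5 described next had a ratio of 0 over the most exonic reads after herboxidiene. Intron 2 of NPQ4 had 0 intronic reads over 4019 exonic reads after herboxidiene, against 0 over 3971 after DMSO. A count of 0 allows a ratio of up to 0.000746 after herboxidiene. Intron 4 of the carbonic anhydrase gene CA1 (AT3G01500) had 0 over 3964 after herboxidiene, against 5 over 4786 after DMSO. The last intron of GOX1 (AT3G14420), a glycolate oxidase, had 0 over 2728 after herboxidiene, against 0 over 2333 after DMSO. The last intron of the myrosinase gene TGG1 (AT5G26000) had 0 over 1454 after herboxidiene, against 6 over 1959 after DMSO. Intron 1 of GLDP1 (AT4G33010), a glycine decarboxylase subunit, had 0 over 859 after herboxidiene, against 8 over 1413 after DMSO (adjusted p = 0.0447, Fisher's exact test). GLDP1 was the only one of these 5 that was called lower.

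Within a gene the calls could agree or differ. In SUS2 all 9 almost fully spliced introns were called higher, with ratios of 0.0232 to 0.115 after herboxidiene and of 0 to 0.0184 after DMSO. In SHM1 9 of 10 were called higher, with ratios of 0.00326 to 0.00794 after herboxidiene, against 0 to 0.00238 after DMSO. In GLU1 2 of 18 were called higher, with ratios of 0.000700 to 0.0211 after herboxidiene and of 0 to 0.0142 after DMSO over all 18. GLU1 intron 21 was called lower, with 1 intronic and 1428 exonic reads after herboxidiene, against 12 and 1583 after DMSO (adjusted p = 0.00728, Fisher's exact test). In PREP1 introns 1 and 18 were called higher and introns 6, 8 and 15 lower. PREP1 intron 1 had 12 and 57 reads after herboxidiene, against 3 and 106 after DMSO, while intron 15 had 5 and 733 reads after herboxidiene, against 22 and 792 after DMSO.

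The 3′ end pause index (3′PI) of a gene is its pNET-seq read density in the highest 50-bp window around the PAS over that in the gene body, and it was listed for genes with a significant pause. The question was whether genes with almost fully spliced introns differed in it. In Col-0 the 3′PI was listed for 1561 of the 1606 genes, with a median of 35.7 (quartiles 18.8 and 57.6), against 21.8 (9.29 and 40.4) in 8743 genes that had introns of the read minimum but none almost fully spliced. The median was 32.9 in genes with 1 such intron, 42.2 with 2, 38.4 with 3 or 4 and 43.0 with 5 or more. In the libraries labelled xrn3 the medians were 41.4 in genes with an almost fully spliced intron and 23.2 in genes without.

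The gap was smaller in the classes of up to 29 introns than over all genes. The genes with an almost fully spliced intron had a median of 11 introns, against 5 in the genes without. With 1 to 3 introns the median Col-0 3′PI was 14.96 in genes with and 11.96 in genes without. With 7 to 9 introns it was 32.7 and 28.5, with 10 to 14 introns 37.2 and 34.7, and with 15 to 19 introns 41.1 and 40.5. With 20 to 29 introns it was 51.8 in 202 genes with and 55.8 in 133 genes without. The quartiles of both kinds of gene overlapped in each of these classes. With 30 or more introns the gap was wider, with medians of 48.8 in 72 genes with and 32.7 in 16 genes without.

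**Figure D5:**
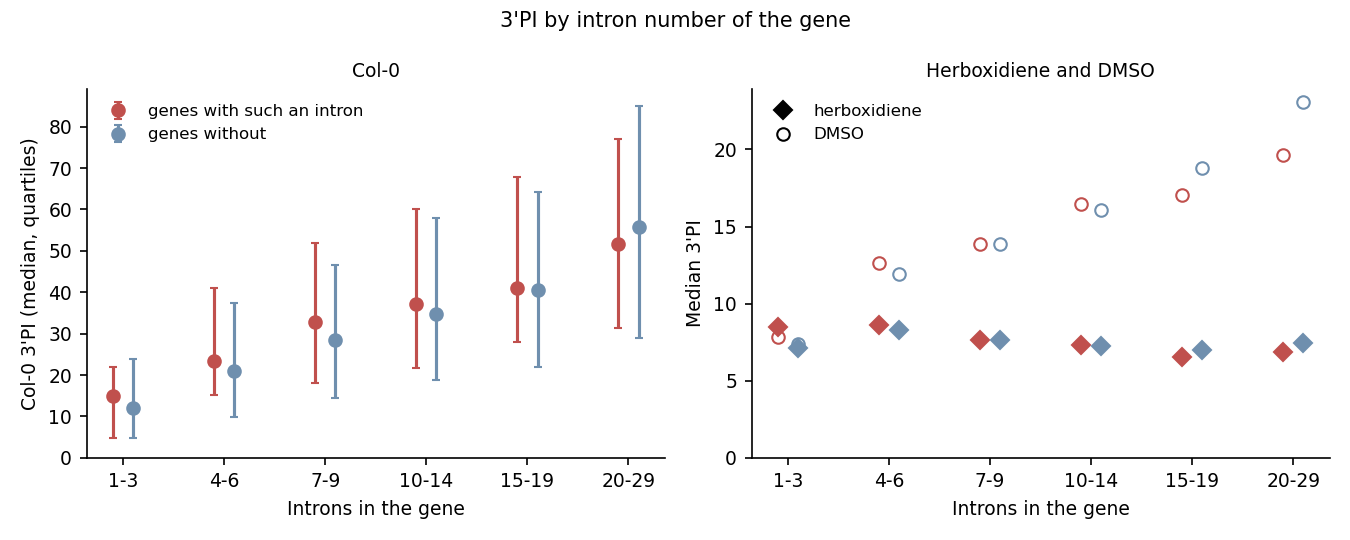
3′PI (vertical axes, ratio of read densities) by number of introns in the gene, for genes with an almost fully spliced intron (red) and genes without (blue), in Col-0 with medians and quartiles over genes, and after herboxidiene (diamonds) and DMSO (open circles) as medians. With 10 to 14 introns the Col-0 medians are 37.2 and 34.7. Genes with 30 or more introns, of which 72 with and 16 without were listed in Col-0, are left out.

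After herboxidiene the 3′PI was lower in 356 of 1105 genes with an almost fully spliced intron (32.2%) and higher in 9, by Fisher's exact test on peak and gene body reads with Benjamini-Hochberg adjustment over the 11590 genes listed in both conditions. Of all these genes 16.6% were called lower and 1.31% higher. Genes without a listed pause in either condition were not tested. Of the 1606 genes with an almost fully spliced intron, 70.2% were listed after herboxidiene and 92.5% after DMSO. Of the 9209 genes without, 75.3% were listed after herboxidiene and 87.9% after DMSO. The median 3′PI in these 1105 genes was 7.44 after herboxidiene, against 16.8 after DMSO. Among the 6697 genes without an almost fully spliced intron 21.2% were called lower, with medians of 7.69 after herboxidiene and 12.8 after DMSO. The shares were closer among genes of like intron number. With 1 to 3 introns 3.37% of 89 genes with and 6.23% of 2119 genes without were called lower. In that class 8.99% of genes with and 2.64% of genes without were called higher. With 10 to 14 introns 36.0% of genes with and 38.3% of genes without an almost fully spliced intron were called lower, and with 15 to 19 introns 53.3% of both. With 7 to 9 introns the shares were 21.98% and 30.8%. Median peak reads after DMSO in that class were 18 in genes with and 23 in genes without.

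Named genes rested on few reads in these pNET-seq libraries. GCT (AT1G55325), a Mediator subunit, had 11 peak and 425 gene body reads after herboxidiene, against 41 and 259 after DMSO (adjusted p = 4.06e-07, Fisher's exact test). VHA-A (AT1G78900) had 22 and 479 reads after herboxidiene, against 38 and 278 after DMSO (adjusted p = 0.00107, Fisher's exact test). ILA, with 17 almost fully spliced introns, had 3 and 95 reads after herboxidiene, against 11 and 128 after DMSO, and its 3′PI of 11.5 after herboxidiene and 31.3 after DMSO did not pass the test. SUS2 had a 3′PI of 36.1 after herboxidiene and 44.6 after DMSO, which did not pass either. GLU1 had a 3′PI of 3.71 after DMSO and was not listed after herboxidiene.

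Between the genotypes the 3′PI was higher in the libraries labelled xrn3 in 318 of 1555 genes with an almost fully spliced intron (20.5%) and lower in 66 (4.24%). Of the 17714 genes tested 11.3% were called higher and 3.66% lower. In genes without an almost fully spliced intron the share called higher was 14.5%. Among genes with 1 to 3 introns, 20% of genes with and 14.3% of genes without were called higher. These shares were 15.4% and 12.5% with 4 to 6 introns, and 14.8% and 12.9% with 7 to 9. They were 20.05% and 17.6% with 10 to 14 introns, 20.4% and 21.6% with 15 to 19, and 26.7% and 27.3% with 20 to 29. The gap was wide again with 30 or more introns, with 45.8% of 72 genes with and 31.25% of 16 genes without. PREP1 had a 3′PI of 90.3 in the libraries labelled xrn3, against 45.8 in Col-0 (adjusted p = 0.00336, Fisher's exact test). SUS2 had 129, against 90.6 in Col-0 (adjusted p = 0.00287, Fisher's exact test), and AT5G61140 had 107, against 48.7 in Col-0 (adjusted p = 0.0168, Fisher's exact test). GLU1, with 41.9 in the libraries labelled xrn3 and 48.8 in Col-0, did not pass the test.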

How the data were processed

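Samples were grouped by genotype or treatment and assay as the labels give them. Per the labels and the study's methods, the authors trimmed CB-RNA-seq and total RNA-seq reads with Trimmomatic 0.39, mapped them to TAIR10 with HISAT2 2.2.0, kept unique reads and restricted the splice site values to expressed genes by TPM (at least 1). The deposited tables of the authors give exonic and intronic read counts at each splice site and their ratio, which equalled the quotient of the counts within rounding for 100% of values. For pNET-seq the authors removed PCR duplicates by UMI, kept the 3′ nucleotide of read 1 and deposited whole-number counts for the gene body and peak window with the 3′PI, a ratio of densities. Libraries were pooled by the authors, and 16 value columns (their TPM, p and q values, and a Col-0 splice site table with no assay named) were not used.

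Introns were taken as listed. Nuclear chromosome names match RefSeq TAIR10.1, where 98.8% of listed introns begin with GT and end with AG. Gene symbols and products come from RefSeq. Rows with no positive length (13 of the read minimum) were left out of length values. Fisher's exact tests (two-sided) and Benjamini-Hochberg adjustment, with an adjusted p under 0.05 as the call, ran in scipy 1.17.1 under Python 3.11.15 (tables in pandas 2.3.3 and numpy 2.4.6, plots in matplotlib 3.10.9), and were tested on simulated data. Intervals are exact Clopper-Pearson intervals at 95%, a count of 0 allows 3 counts, and both cover counting error only, since PCR reads without molecular identifiers are not independent molecules. Named introns and genes are the 10 deepest introns with no intronic read, the 10 genes with most almost fully spliced introns, the 5 highest and 5 lowest ratios after herboxidiene (ties at 0 ordered by exonic reads), the 3 longest and 3 shortest introns, the leading gene of each list and XRN3, which the study names. Genes whose introns of the read minimum were all almost fully spliced were added after their values were seen. The set and the lists were chosen with earlier results of these data known. Alternatives covered the ratio limit, the read minimums and the call thresholds.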

Additional observations from a re-analysis of the deposited data

How the results depend on the processing

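A limit of 0.02 gave 537 introns, and 70.5% were at or below 0.05 in the libraries labelled xrn3. Of 315 of these tested after herboxidiene 160 were called higher (50.8%, against 60.8% of all introns tested). A limit of 0.1 gave 9051 introns and a share of 40.4% in the libraries labelled xrn3, and 3875 of 6687 tested were called higher (57.9%, against the same 60.8%). With 20 or 100 exonic reads at each site the share in the libraries labelled xrn3 was 61.9% or 73.1%, and with 100 reads at each site in those libraries 72.5%. With each splice site ratio at most 0.05, 68.7% were at or below 0.05 in the libraries labelled xrn3, and 673 of 1243 tested were called higher after herboxidiene (54.1%, against 60.8%). With at least 200 summed exonic reads in both conditions, 539 introns were called higher (66.1% of 815, against 73.8% of all introns tested). The cause was not tested. At an adjusted p under 0.01, 198 of 1555 genes had a higher 3′PI in the libraries labelled xrn3 (12.7%, against 6.25% of all genes). The share at intron 1 of genes with 10 or more introns stayed above that at the last intron under every limit tried, with 3.63% and 0.256% at 0.02 and 33.9% and 7.12% at 0.1. The median 3′PI of genes with an almost fully spliced intron was 32.6 to 37.8 under the other limits, within 1.5 times the reported value. Of 19 named introns tested, 2 calls were lost at an adjusted p under 0.01 (GLDP1 and AT4G10060). No paired analysis was possible because each table used here holds 1 pooled value per condition, and for the same reason no library could be left out. With a median of 12 peak reads per gene after herboxidiene and 16 after DMSO, depth limits the 3′PI comparison.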
